A study of Mus musculus with 6 samples.

Results

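Mature dendritic cells with transcripts of both Ccr7 and Fscn1 were picked out of droplet-based single-cell RNA sequencing libraries whose source is labelled as YUMM2.1, a mouse melanoma cell line. Members were chosen by their UMI counts of the gate genes. A cell was a member when it held at least 1 UMI (unique molecular identifier, 1 per captured transcript) of Ccr7 and at least 1 of Fscn1, and none of the T cell genes Cd3e and Cd3d or of the NK cell gene Ncr1. Of 6364 cells kept, 226 were members. The library labelled Empty vector gave 135 of its 3978 cells, and the library labelled Bmal1 WT gave 91 of its 2386. Bmal1, encoded by Arntl, drives the circadian clock as a transcription factor. Each library pooled 3 replicates marked with hashtag antibodies, which were h1, h7 and h8 for Empty vector and h3, h5 and h9 for Bmal1 WT. Exactly 1 hashtag was called on 198 members, with 47, 26 and 42 cells in h1, h7 and h8 and 40, 33 and 10 cells in h3, h5 and h9. The labels give no age, strain or sex, and do not say which vector carried Bmal1, whether the cells came from culture or tissue, or whether hashtags were separate animals, so p-values measure only the spread between these samples. All replicates of a group went through 1 droplet channel, so effects of group and of channel cannot be told apart. The files of the remaining group, Bmal1 bHLH, held the same values as Bmal1 WT and were counted once, as Bmal1 WT, so that group was not analysed here.

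Dendritic cells sample their surroundings in tissue and, once activated, mature into a state that leaves for the lymph node and presents antigen to T cells. Ccr7 is the receptor that follows the lymph node chemokines CCL19 and CCL21, and fascin (Fscn1) bundles the actin of the long processes from which the cells take their name. Maturation is known to lower the uptake of new antigen and to raise costimulatory ligands, and the same cells in tumours also carry molecules that restrain T cells. Immature dendritic cells of the same libraries served as the reference. They were cells with a UMI of Xcr1 (a receptor of cDC1, the conventional dendritic cells that cross-present antigen) or of Mgl2 (a lectin of cDC2, which present mainly to CD4 T cells), without both Ccr7 and Fscn1 and without Cd3e, Cd3d and Ncr1. There were 465 of them, 130 with Xcr1 and 335 with Mgl2 and no Xcr1. Of the 130 cells with Xcr1, 46 also held a UMI of Mgl2.

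Mature cells had a median of 9505 UMIs, from 551 to 102175, and immature cells 12992, from 510 to 216213. UMIs summed per hashtag ranged from 93361 (Bmal1 WT h9, 10 cells) to 580261 (Empty vector h1) in mature cells, and levels are given as CPM (a gene's UMIs scaled to a common total of the sum they come from). The mature class had 2 cells over 50000 UMIs and the immature class 6. Of the 2 mature ones, a Bmal1 WT cell without a hashtag had 135 UMIs of Col1a1 and none of Ptprc or Ccl22 and entered no sum, and the other, in h5, is described with the interaction. The libraries shared 5 cell barcodes, none of them of a mature cell. At least 1 UMI of Ptprc, the pan-leukocyte gene, was found in 106 of the 135 Empty vector members and in 59 of the 91 Bmal1 WT members.

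UMIs of the gate genes chose the members, so their levels are a description. A mature cell held from 1 to 167 UMIs of Ccr7, with a median of 19.5, and from 1 to 182 of Fscn1, with a median of 18. Only 1 member held a single UMI of each. Another 30 held 1 UMI of 1 gene and more of the other, and of these 86.7% had a UMI of the chemokine gene Ccl22 and 66.7% of Cacnb3. Among the 195 members with at least 2 UMIs of each, the shares were 97.9% and 89.7%. Just outside the gate, of 72 cells with Ccr7 and no Fscn1, 26.4% had Ccl22 and 9.72% Cacnb3. Of 294 cells with Fscn1 and no Ccr7, 12.9% had Ccl22, while 71.1% had the fibroblast collagen gene Col1a1. A further 20 cells held both gate genes and were removed for Cd3e, Cd3d or Ncr1, and 90.0% of these had Ccl22. These shares are a description, since Ccl22 and Cacnb3 are markers given for these cells, and they lend the gate no support. They also depend on depth. Median UMIs were 1992.5 in the 30 members and 10899 in the 195. In the cells with only Ccr7 and only Fscn1 they were 4441 and 19028.

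Of 10 genes that dendritic cells share, chosen without the gate genes, all 10 were detected and at least 1 had a UMI in 222 of the 226 cells. Their summed level per hashtag was 3022 to 7674 CPM, below the 21605 to 26768 CPM of immature cells, and 3 of the 10 were higher than there while 6, such as Itgax (CD11c), H2-Ab1 and Cd74, were lower. The list was counted in mature and immature cells only, so the count of 222 cells has no background in other cell types. Flt3, the growth factor receptor of the dendritic lineage, stood at 341, 369 and 353 CPM in the mature cells of h1, h7 and h8 and at 254, 236 and 407 CPM in h3, h5 and h9, against 84.9 to 142 CPM in immature cells. Zbtb46, a transcription factor of conventional dendritic cells, was at 99.5 ± 23.9 CPM (SD, n = 6 hashtags) against 43.9 ± 14.2. Markers of other cell types were mostly sparse in the sums per hashtag. Of 9 macrophage and monocyte markers 7 were detected, C1qa and Csf1r had no UMI in 226 cells, and the summed level per hashtag was 0 to 36.2 CPM. None of 6 neutrophil markers had a UMI. Of 8 B cell markers 4 were detected, Cd79a, Pax5 and Fcmr were among those at 0, and the sum was at most 4.04 CPM per hashtag. Of 8 T cell markers Cd3g was at 0, with sums of 6.37 to 32.1 CPM. Of 7 NK cell markers Prf1 was at 0, with sums of 9.55 to 82.7 CPM. All 7 fibroblast markers were detected, with sums of 6.37 to 21.4 CPM per hashtag and of 358 CPM over all 226 cells, which include those without a single hashtag. Of 7 melanoma markers Mlana and Dct were at 0, and the sum was 0 to 8.62 CPM apart from 59.5 CPM in h5. Plasmacytoid dendritic cell markers summed to 123 to 263 CPM, nearly all from Tcf4 and Bst2, which are not restricted to that cell type.

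The immature class was less pure, which touches every comparison with it. All 9 macrophage and monocyte markers were detected there, with a summed level of 692 to 6905 CPM per hashtag, highest in h5. B cell markers summed to 44.3 to 139 CPM, with a UMI in 40% of immature and 3.98% of mature cells. The shares were 40% and 20.8% for NK cell markers and 12.9% and 0% for neutrophil markers. They were 13.1% and 14.6% for T cell markers and 12.3% and 12.4% for fibroblast markers. Melanoma markers reached 244 CPM in h8 and at most 23.5 CPM in the other hashtags. C1qa, a complement gene of macrophages, had a UMI in 19.6% of immature cells, in 26.9% of those with Mgl2 and in 0.769% of those with Xcr1. Values against the Xcr1 and the Mgl2 cells are therefore given beside those against both together. These comparisons share the mature samples, and the Xcr1 class of h7 had only 2 cells.

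UMIs were summed per hashtag and class, and edgeR's quasi-likelihood test was applied to the 9238 genes with at least 50 UMIs, with the hashtag as a block and the 7 gate genes left out. Of these, 1620 genes (17.5%) were higher in mature cells and 2728 (29.5%) lower, at a Benjamini-Hochberg adjusted p below 0.05. The minimum was set on both classes together, so a gene high in 1 class could pass through that class alone, and only 5298 genes reached it in mature cells alone. Counts over a list describe the genes that passed, and those against both immature classes are to be read against these shares of 17.5% and 29.5%. Genes said not to overlap between the classes are examples, and how many of all genes tested did so was not counted. The gate itself makes genes that accompany Ccr7 and Fscn1 differ between the classes, and the test asks only whether a difference recurs over hashtags. The median log2 ratio over all genes tested was -0.22, and -0.085 with TMM scaling, so values of a gene are to be read against that shift. With TMM 1914 genes were higher and 2317 lower, and the median of each list against both immature classes together kept its sign.

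**Figure D1:**
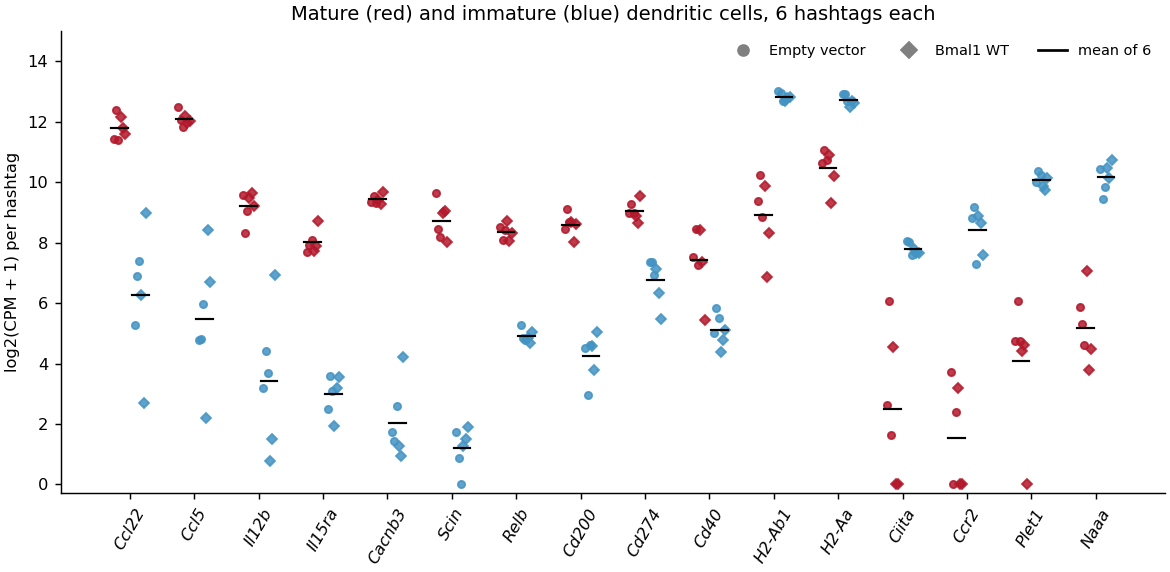
Levels of 16 genes in mature (red) and immature (blue) dendritic cells, as log2 of CPM plus 1 on the vertical axis, with 1 point per hashtag (circles, Empty vector; diamonds, Bmal1 WT) and a bar at the mean of 6. Genes from Ccl22 to Cd40 lie higher in mature cells and genes from H2-Ab1 to Naaa lower, and the classes do not overlap for 15 of them, the exception being Cd40 in Bmal1 WT h9.

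The markers given for these cells besides the gate genes, Ccl22, Il12b, Cacnb3 and Scin, helped to define them and are listed without drawing support from them. Ccl22 (chromosome 8, 94745590 to 94751699, GRCm38), the chemokine that attracts CCR4-bearing regulatory T cells, was at 2769, 5331 and 2725 CPM in the mature cells of h1, h7 and h8 and at 4581, 3545 and 3128 CPM in h3, h5 and h9. In immature cells it was at 37.9, 118 and 168 CPM and at 76.7, 5.42 and 506 CPM, far below in every hashtag. Il12b, which encodes the p40 subunit of interleukin-12, was at 770, 318, 528, 719, 805 and 600 CPM in mature cells of h1, h7, h8, h3, h5 and h9, and at 0.711 to 121 CPM in immature cells. Cacnb3, a calcium channel subunit, was at 618 to 825 CPM against 0.904 to 17.5 CPM. Scin, an actin-severing protein, was at 257 to 795 CPM against 0 to 2.69 CPM. The highest immature values of Ccl22, Il12b, Cacnb3 and Scin were all in h9.

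Among chemokines, the level of Ccl5 (chromosome 11, 83525778 to 83530518, minus strand) separated the classes most. Ccl5 draws T and NK cells. It was at 5822, 4300 and 3623 CPM in mature cells of h1, h7 and h8 and at 4688, 3969 and 4188 CPM in h3, h5 and h9. Immature cells had 26.4, 27.0, 61.7, 3.55, 343 and 102 CPM in the same order, without overlap. The log2 ratio of Ccl5 was 6.36 ± 0.618 (SE; edgeR adjusted p = 1.50e-06), 9.39 against Xcr1 cells and 5.81 against Mgl2 cells. Cxcl16, a ligand of the T cell receptor CXCR6, was also higher, by 1.16 on the log2 scale (828 ± 153 CPM against 378 ± 103). Ccl17, the other CCR4 ligand, did not pass the test at 1266 ± 806 CPM against 1336 ± 598. Against Xcr1 cells, however, its log2 ratio was 1.90 (adjusted p = 0.0066), and against Mgl2 cells it was -0.62 (adjusted p = 0.12). The remaining chemokines, Ccl3, Ccl4, Ccl9, Cxcl2, Cxcl9 and Cxcl10, attract monocytes, neutrophils or activated T cells. They were lower in mature cells than in both immature classes together. In all, 3 of 10 chemokine genes, the given marker Ccl22 among them, were higher and 6 lower, with a median log2 ratio of -2.52. Only 6 of the 10 reached the minimum of UMIs in mature cells alone, and the rest entered through the immature class. Against Xcr1 cells 4 of 9 were higher and only 1 lower. The median was 1.57 against Xcr1 cells (9 genes) and -2.85 against Mgl2 cells, which hold the macrophage markers.

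Of 12 cytokine genes 7 were abundant enough to test, and 4 were higher and 2 lower. Il15 and its receptor Il15ra, which hold interleukin-15 on the cell surface for NK and CD8 T cells, were both higher. Il15 was at 90.1 ± 17.4 CPM against 6.20 ± 3.77, a log2 ratio of 3.99 ± 0.287. Il15ra was at 205, 242, 274, 212, 236 and 418 CPM in mature cells of h1, h7, h8, h3, h5 and h9, against 2.84 to 11.0 CPM, a log2 ratio of 5.12 ± 0.212 (adjusted p = 1.26e-09). The classes did not overlap for Il15ra, and the ratios against Xcr1 and Mgl2 cells were 5.72 and 4.88. Il1b, a cytokine of innate inflammation, was lower, with a log2 ratio of -2.79 against both classes together, -3.28 against Mgl2 cells and 0.63 against Xcr1 cells (adjusted p = 0.24). Il12a, the partner subunit of Il12b in interleukin-12, had no UMI in the mature sums, as did Il10 and Il23a.

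The NF-kappaB pathway, which carries signals from TNF-family and Toll-like receptors to the nucleus, moved broadly. Of 19 genes tested 16 were higher in mature cells and 1, Tnfaip2, was lower, with a median log2 ratio of 1.86. Against Xcr1 cells 18 were higher and none lower (percent of all genes higher, 17.1%), and against Mgl2 cells 16 were higher (19.1% of all genes) and 2 lower. Genes of the non-canonical branch were among those raised most. Relb, its DNA-binding subunit, was at 364, 271 and 338 CPM in h1, h7 and h8 and at 424, 268 and 321 CPM in h3, h5 and h9, against 24.4 to 37.9 CPM in immature cells. Its log2 ratio was 3.5 ± 0.156 (adjusted p = 1.93e-09), with no overlap of the classes. Nfkb2, the partner of Relb, was at 213 ± 21.8 CPM against 35.1 ± 5.6 (log2 ratio 2.57), and Map3k14, the kinase NIK that drives processing of Nfkb2, had a log2 ratio of 2.18. The adaptor Traf1 (3.01) and the ubiquitin ligase Birc2 (3.07) were higher too. Of the canonical subunits, Rel had a log2 ratio of 1.91, Nfkb1 1.25 and Rela 0.66. Tnfaip3, a brake on the pathway, did not pass the test in the pooled comparison (-0.12), with 2.51 against Xcr1 cells and -0.56 against Mgl2 cells.

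Costimulatory and maturation genes were higher in 10 of 11 tested, with a median log2 ratio of 1.73 (3.42 against Xcr1 cells, 1.59 against Mgl2 cells). Cd80, which engages CD28 on T cells, was at 331, 398 and 434 CPM in h1, h7 and h8 and at 410, 431 and 503 CPM in h3, h5 and h9, against 73.2 to 110 CPM in immature cells. The classes did not overlap for Cd80, and its log2 ratio was 2.25 ± 0.148 (adjusted p = 4.24e-08). Cd86, the other CD28 ligand, differed far less, by 0.56 (267 ± 57.0 CPM against 182 ± 18.8, adjusted p = 0.0091). Cd40, the receptor for T cell help, varied widely among mature cells, at 183, 347, 154, 345 and 164 CPM in h1, h7, h8, h3 and h5 and 42.8 CPM in h9. The last value lay within the immature range of 19.9 to 55.8 CPM, and the log2 ratio of Cd40 was 2.55 ± 0.299. Cd83, which stabilises MHC class II and CD86 on the surface, was higher by 1.59. Cd70, the ligand of CD27, was found in mature cells of all 6 hashtags at 10.7 to 86.8 CPM and had no UMI in immature cells. Counted against 3 UMIs over the immature sums it was at least 84.0-fold higher.

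Most genes of a list of regulatory molecules were raised alongside, and not all of them act on T cells. Of 13 regulatory genes tested 10 were higher and 3 lower, with a median log2 ratio of 2.21. The median was 3.82 against Xcr1 cells and 2.37 against Mgl2 cells. Cd274, which encodes PD-L1, was at 503, 621 and 511 CPM in h1, h7 and h8 and at 470, 406 and 739 CPM in h3, h5 and h9, against 43.1 to 163 CPM in immature cells. Its log2 ratio was 2.21 ± 0.242 (adjusted p = 4.86e-06). Cd200, a ligand that inhibits myeloid cells, had a larger ratio of 4.35 ± 0.259 (395 ± 93.5 CPM against 20 ± 9). Il4i1, an enzyme that breaks down phenylalanine and tryptophan, had a ratio of 3.93 (285 ± 79.1 CPM against 21.1 ± 15.8). Its annotation overlaps Nup62 on the same strand, so some of its reads may belong there. Socs2, a brake on cytokine signalling, had a ratio of 3.51, and the death receptor Fas 5.07. Aldh1a2, which makes retinoic acid, had a ratio of 2.05. Socs3, Tgfb1 and Lgals1 were the 3 that were lower. Socs3 was not called against Xcr1 cells (0.41, adjusted p = 0.42), nor Lgals1 against Mgl2 cells (-0.83, adjusted p = 0.078). Ido1, an enzyme that degrades tryptophan, was near the detection limit at 2.95 ± 3.99 CPM and was not tested.

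**Figure D2:**
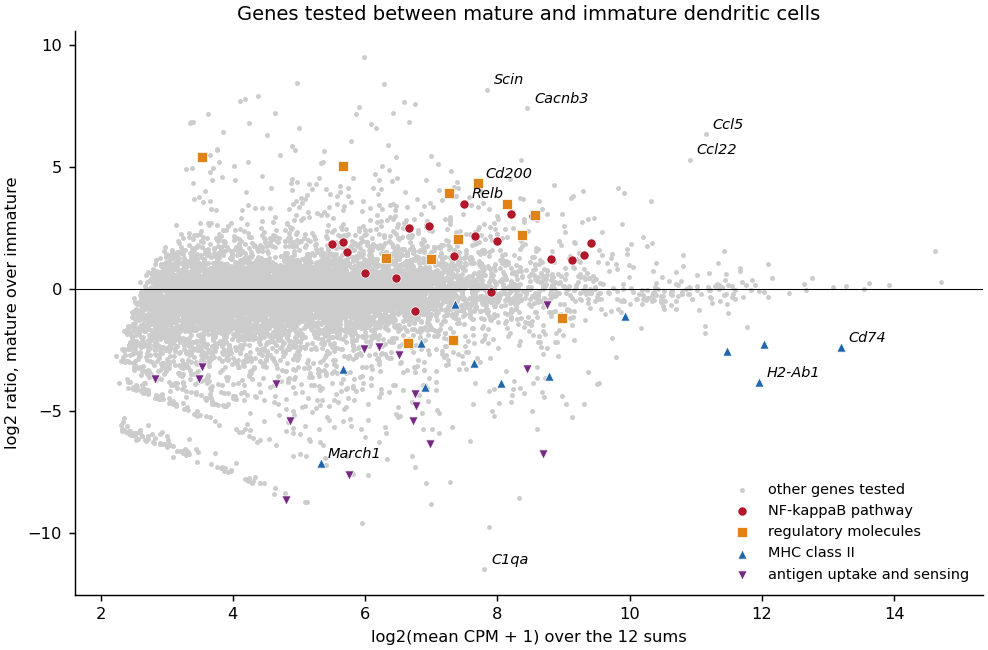
Each point is 1 of the 9238 genes tested, placed by log2 of its mean CPM plus 1 over the 12 sums (horizontal) and by its log2 ratio of mature over immature cells (vertical), with 4 gene lists in colour. The NF-kappaB genes lie mostly above 0, the MHC class II and antigen uptake genes lie below it, and the diagonal streaks at the lower left are genes with few or no UMIs in mature cells.

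MHC class II genes were lower in mature cells as a group. Of 13 genes tested 12 were lower and none higher, with a median log2 ratio of -3.03, and 10 of the 13 reached the minimum of UMIs in mature cells alone. The list held the chains, their chaperones and loading enzymes, and regulators. H2-Ab1 (chromosome 17, 34257689 to 34269419), the beta chain of I-A, was at 664, 1209 and 460 CPM in mature cells of h1, h7 and h8 and at 933, 115 and 321 CPM in h3, h5 and h9. Immature cells had 6572 to 8317 CPM, so even the highest mature value lay far below. The log2 ratio of H2-Ab1 was -3.81 ± 0.333 (adjusted p = 5.49e-07), and H2-Aa, the alpha chain, had -2.23 ± 0.185 (1533 ± 550 CPM against 6780 ± 798). Cd74, the invariant chain that guides class II molecules to the endosome, had a ratio of -2.37, and the peptide loading genes H2-DMa and H2-DMb1 -3.56 and -3.83. Ciita, the transactivator that class II promoters depend on, was at 5.17, 66.8 and 2.14 CPM in h1, h7 and h8, at 22.2 CPM in h3 and at 0 in h5 and h9, against 191 to 264 CPM in immature cells (log2 ratio -4.00 ± 0.467). March1, the ubiquitin ligase that removes MHC class II and CD86 from the surface, was at 2.02 CPM in h3 and 0 in the other 5 hashtags, against 54.1 to 108 CPM. March1 had the lowest ratio of the list, -7.13 ± 0.465 (adjusted p = 3.92e-08). Lgmn, an endosomal protease, did not pass the test (-0.59, adjusted p = 0.061). The fall was not limited to 1 comparator, since 11 of 13 genes were lower against Xcr1 cells (19.2% of all genes were lower there), with Ctss and Lgmn higher, and 13 of 13 against Mgl2 cells (29.1% of all genes). Without cells holding a UMI of Cd79a, C1qa, C1qb or C1qc, 12 of 13 were lower and 1 higher, with a median of -3.15. H2-DMb1 and H2-DMb2 are close copies, and reads could be split between them.

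The promoters of these genes are shown because class II genes moved together and share known elements. The Y box, bound by the factor NF-Y beside the X box through which CIITA acts, has the core GATTGG. The 120 bases before each annotated start (RefSeq, GRCm38.p6) were searched for it on either strand. It was present in 6 of 11 windows of the list (54.5%), which belong to 9 genes, and in 9.67% of all 32851 windows. Sequences are written 5′ to 3′ on the gene's strand, with matches to GATTGG (or its reverse complement CCAATC) in capitals.
H2-Aa (chr17:34287824-34287943, minus strand): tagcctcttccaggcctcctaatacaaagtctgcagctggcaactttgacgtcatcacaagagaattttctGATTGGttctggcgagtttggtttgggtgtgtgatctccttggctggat
H2-Eb1 (chr17:34305747-34305866, plus strand): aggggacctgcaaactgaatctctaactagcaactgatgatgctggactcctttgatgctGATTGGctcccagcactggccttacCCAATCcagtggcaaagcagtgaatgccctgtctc
H2-DMb1 (chr17:34153071-34153190, plus strand): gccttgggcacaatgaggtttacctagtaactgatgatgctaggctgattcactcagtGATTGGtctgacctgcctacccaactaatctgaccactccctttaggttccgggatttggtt
H2-DMb2 (chr17:34145129-34145248, plus strand): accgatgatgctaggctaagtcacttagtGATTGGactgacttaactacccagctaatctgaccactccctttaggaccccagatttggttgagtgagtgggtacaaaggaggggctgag
H2-Oa (chr17:34092259-34092378, plus strand): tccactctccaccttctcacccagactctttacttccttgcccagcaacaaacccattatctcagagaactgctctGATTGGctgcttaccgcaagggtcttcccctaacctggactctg
H2-Ob (chr17:34238785-34238904, plus strand): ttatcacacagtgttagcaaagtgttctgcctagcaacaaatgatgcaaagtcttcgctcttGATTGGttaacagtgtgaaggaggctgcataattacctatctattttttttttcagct
The sense match began 49 bases before the start in H2-Aa, 60 in H2-Eb1, 62 in H2-DMb1, 91 in H2-DMb2, 44 in H2-Oa and 58 in H2-Ob. All 6 genes were lower in mature cells, by log2 ratios of -2.23 (H2-Aa), -2.55 (H2-Eb1), -3.83 (H2-DMb1), -3.03 (H2-DMb2), -2.19 (H2-Oa) and -3.26 (H2-Ob). H2-DMa, Ctss and Lgmn had windows with no match to these letters, and H2-DMa and Ctss were lower in mature cells as well. H2-Ab1, Cd74, Ciita and March1 had no window among those searched. Whether a match goes with a lower level was not tested. Of the MHC class I list 5 of 12 windows (41.7%) held the letters, and of the NF-kappaB list none of 23, and a match is a description of the letters and not of binding.

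MHC class I genes went another way. Of 14 tested 7 were higher and 2 lower, with a median log2 ratio of 0.35. H2-K1, a class I heavy chain, was at 3719, 4242 and 3963 CPM in h1, h7 and h8 and at 3370, 2555 and 3203 CPM in h3, h5 and h9, against 1054 to 2005 CPM in immature cells. Its log2 ratio was 1.08 ± 0.119 (adjusted p = 5.24e-06), without overlap, although class I heavy chains are similar in sequence and reads could be split among them. B2m, the shared light chain, had a ratio of 1.02, and Nlrc5, the transactivator of class I genes, 1.41. The 2 lower genes, Calr (-1.79) and Pdia3 (-1.13), encode chaperones of the endoplasmic reticulum. Tap1, the peptide transporter, did not pass the test (0.09).

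Of 20 genes for taking up and sensing antigen 17 were tested, and these 17 were lower than in immature cells, with a median log2 ratio of -3.87. Only 5 of the 20 reached the minimum of UMIs in mature cells alone, and the rest of those tested entered through the immature class, where they are high, so the count is largely fixed by that minimum. This list moved with the macrophage markers of the immature class, and against Xcr1 cells only 5 of 9 genes tested were lower (median -1.74), against 15 of 16 for Mgl2 cells (median -4.57). Without cells holding a UMI of Cd79a or C1q genes, 14 of 15 were lower. Clec12a, a lectin receptor for dead cells, was lower in both, by -3.04 against Xcr1 and -2.0 against Mgl2 cells (23.9 ± 16.1 CPM against 122 ± 21.8 in all immature cells). The scavenger receptor Cd36 was lower by -4.00 against Xcr1 cells, and against Mgl2 cells its ratio was -0.92 (adjusted p = 0.099). Fcer1g, the signalling chain of Fc receptors, showed the reverse, with 0.62 against Xcr1 cells (adjusted p = 0.18) and -3.75 against Mgl2 cells.

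Genes that tell cDC1 from cDC2 depended on the comparator, as the immature class was chosen on Xcr1 or Mgl2. Of 12 cDC1 genes 10 were lower and 2 higher than in both immature classes together, with a median log2 ratio of -2.90. Against Xcr1 cells 11 were lower and 1 higher (median -4.34), and against Mgl2 cells 7 of 11 were lower and 4 higher (median -2.05). Of 10 cDC2 genes tested 9 were lower and none higher, with a median of -4.13, but only 5 of them reached the minimum of UMIs in mature cells alone. Against Mgl2 cells 9 of the 10 were lower and 1 higher (median -4.56), and against Xcr1 cells 3 of 7 were lower and 1 higher (median -1.03). Naaa, a lysosomal enzyme of cDC1, was at 47.3 ± 43.9 CPM in mature cells against 1213 ± 370, and was lower against both Xcr1 cells (-5.96) and Mgl2 cells (-3.69). Tlr3, the receptor for double-stranded RNA, had a ratio of -6.25 (1.35 ± 3.30 CPM against 144 ± 83.8). Plet1, a surface protein of cDC2, was at 27.0 ± 21.8 CPM against 1083 ± 176 (log2 ratio -5.25). Cd209a and Clec4a2, lectin receptors of cDC2, had no UMI in mature cells and were at least 42.6-fold and 32.6-fold lower against 3 UMIs over the mature sums. The 2 higher genes encode transcription factors of cDC1. Batf3 had a ratio of 1.34 and was higher against both comparators (1.01 and 1.54). Irf8 was at 1343 ± 128 CPM, below Xcr1 cells (-0.55, adjusted p = 0.030) and above Mgl2 cells (2.65). Clec9a and Cadm1 likewise lay between the comparators, at -3.34 and -2.66 against Xcr1 cells and 1.56 and 2.49 against Mgl2 cells. Of the shared genes Flt3, Zbtb46 and Traf1 were the 3 higher ones, and Itgax was at 29.2 ± 18.1 CPM against 310 ± 33.8.

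**Figure D3:**
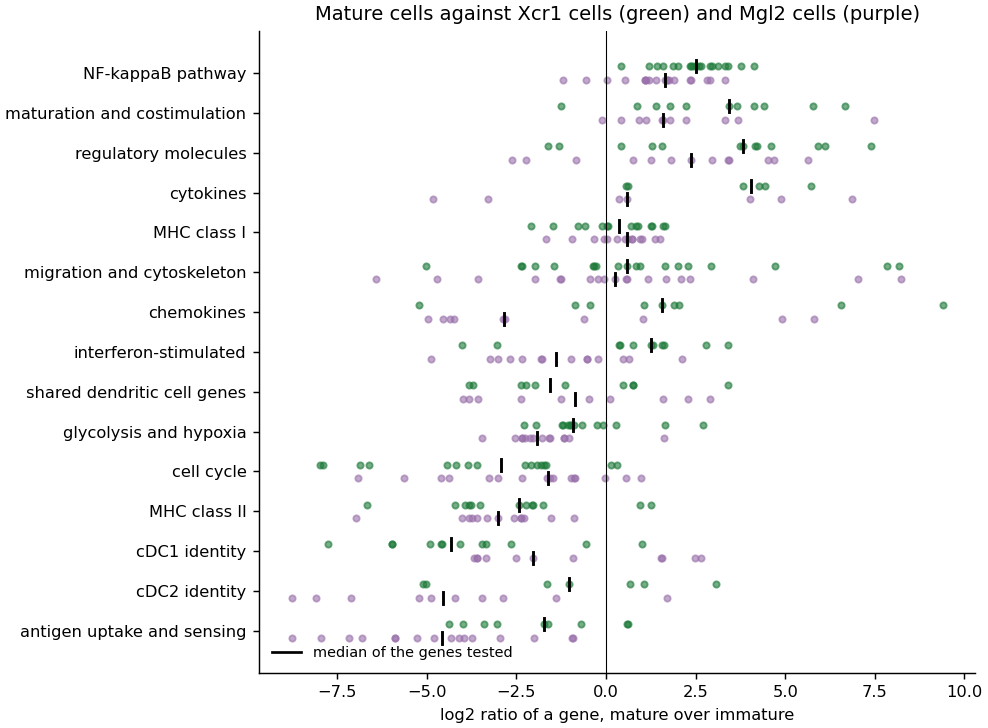
Log2 ratios of mature over immature cells for each gene tested in 15 lists, against Xcr1 cells (green) and against Mgl2 cells (purple), with a black bar at the median of each. NF-kappaB, costimulation and regulatory genes have medians above 0 for both comparators, MHC class II, cDC1, cDC2 and cell cycle genes below 0 for both, and chemokines and interferon-stimulated genes have medians on opposite sides.

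Genes of migration and the cytoskeleton were split, with 8 of 19 tested higher and 7 lower (17.5% and 29.5% of all genes) and a median log2 ratio of 0.28. The 8 include the given markers Scin and Cacnb3. Besides Scin and Cacnb3, the members raised most were Marcksl1, a regulator of actin at the membrane, with 881 ± 148 CPM against 46.9 ± 15.5 (ratio 4.28 ± 0.190), and Myo1g, a myosin of leukocytes, with 2.5. Ccr2, a receptor that brings monocytes and immature cells to inflamed tissue, was lower, with a log2 ratio of -6.20. It stood at 0 in h7, h5 and h9 and at up to 12.1 CPM in the other mature samples, against 157 to 585 CPM in immature cells. Ccr2 was lower against Xcr1 cells too (-5.04).

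Over all genes, the largest ratios among those called with a mean of at least 100 CPM belonged to Scin, Gm47662, Cacnb3, Adcy6, Ccl5, Mreg, Il12b, Ccl22, Il15ra and Stat4. Of these, Scin, Cacnb3, Il12b and Ccl22 are given markers, which helped to define the cells. Scin, Gm47662, Cacnb3, Adcy6, Mreg and Il15ra did not reach the minimum of UMIs in immature cells alone and entered through the mature class. Gm47662 is a long intergenic non-coding RNA (chromosome 13, 32997062 to 33001750). It was at 243, 191 and 169 CPM in h1, h7 and h8 and at 208, 191 and 268 CPM in h3, h5 and h9, against 0 in 4 immature samples and 2.3 and 5.38 CPM in h1 and h9 (log2 ratio 7.58 ± 0.405). Adcy6, an adenylyl cyclase that makes cyclic AMP, was at 168 to 246 CPM against 0 to 6.73 CPM (6.87 ± 0.352), and its locus overlaps the antisense gene Gm29331. Mreg, which acts in the transport of lysosome-related organelles, was at 175 to 311 CPM against 0.845 to 12.1 CPM (5.46 ± 0.300). Stat4, a transcription factor that acts below the interleukin-12 receptor, was at 240 to 334 CPM against 7.11 to 26.9 CPM (4.84 ± 0.226). None of these 4 overlapped between the classes. The 10 lowest ratios by the same rule belonged to C1qa, Mmp12, C1qc, Apoe, Gpr171, C1qb, Ear2, Lyz2, Clec4n and Ccr2, most of which are macrophage genes. None of these 10 reached the minimum in mature cells alone, so they entered through the immature class, where they are high. C1qa had no UMI in mature cells and was at least 368-fold lower, while Gpr171, a G protein-coupled receptor, was low against both Xcr1 cells (-7.57) and Mgl2 cells (-7.92).

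Proliferation and glycolysis genes that passed were mostly lower in mature cells. Of 16 cell cycle genes 14 were lower and 1 (Tubb5, a tubulin) higher, with a median log2 ratio of -2.26, but only 6 of the 16 reached the minimum of UMIs in mature cells alone and the others entered through the immature class. Mki67, a marker of cycling cells, was at 8.85 ± 8.33 CPM against 74.1 ± 35.5. Of 14 glycolysis and hypoxia genes 13 were lower and 1 higher, with a median of -1.64. Ldha, lactate dehydrogenase, was at 176 ± 44.3 CPM against 780 ± 100 (log2 ratio -2.18), and it was lower against both Xcr1 (-1.97) and Mgl2 cells (-2.25). The exception was Ndrg1, a stress-responsive gene, with a ratio of 1.84 (535 ± 129 CPM against 145 ± 27.5). Against Xcr1 cells 7 of the 14 were lower. Of 14 interferon-stimulated genes 2, Oasl1 among them, were higher and 7 lower (17.5% and 29.5% of all genes), with a median of -0.97. The medians against Xcr1 and Mgl2 cells were 1.24 (11 genes) and -1.39. Of 18 clock genes only 8 reached the minimum of UMIs, and 2 were called higher and 1 lower (17.5% and 29.5% of all genes). Their median was -0.24, beside -0.22 over all genes, so the list did not stand apart. Without h9, or without cells with Cd79a or C1q UMIs, 1 was higher and 1 lower. Nfil3, a repressor of clock output, was higher by 1.13, Tef by 1.30, and Per1 was lower by -1.24. Arntl was at 7.65 ± 5.40 CPM in mature cells against 5.96 ± 2.17 (log2 ratio 0.45, adjusted p = 0.47).

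The mature cells were not alike in the genes of their possible precursors. UMIs of Clec9a, Xcr1 or Cadm1 without any of Mgl2, Sirpa or Clec10a were present in 62 cells (27.4%), the converse in 39 (17.3%), both in 4 and neither in 121 (53.5%). Detection depends on depth, and cells with neither had a median of 4541 UMIs against 18335.5 and 11881 for the cDC1-marked and cDC2-marked cells, so the split leaves out the shallow cells and is given without a test. Il12b was at 851, 250, 907, 1407 and 1152 CPM in the cDC1-marked cells of h1, h7, h8, h3 and h5. In the cDC2-marked cells of the same hashtags it was at 587, 717, 86.4, 65.8 and 169 CPM, lower in 4 of 5 and higher in h7. An Il12b UMI was present in 50 of 62 cDC1-marked and 14 of 39 cDC2-marked cells. Ccl17 ran the other way. It was at 641, 1379, 392, 2367 and 633 CPM in cDC1-marked cells and at 947, 2560, 2254, 3900 and 1615 CPM in cDC2-marked cells, higher in 5 of 5. Ccl22 showed no common direction. Hashtag h9 had 3 cDC1-marked cells and no cDC2-marked cell.

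**Figure D4:**
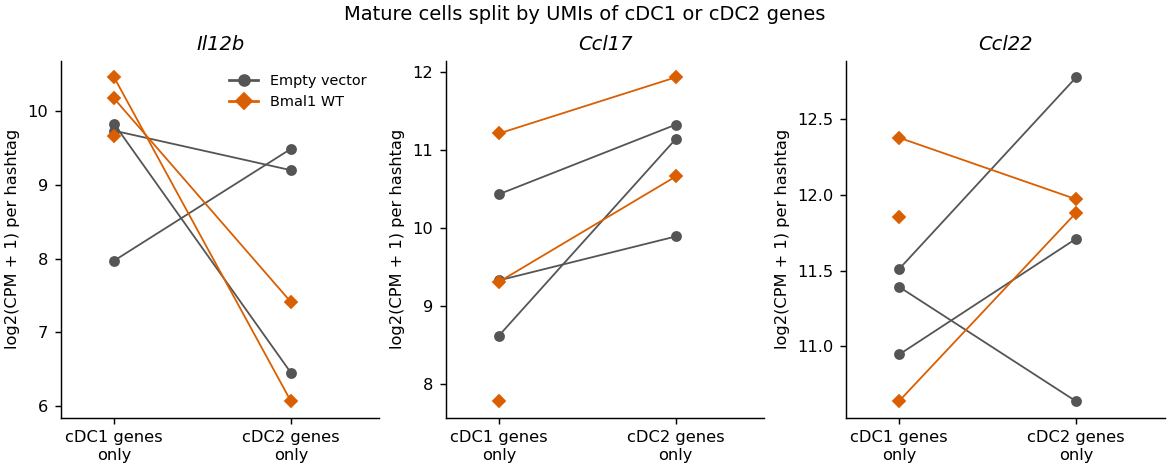
Levels of Il12b, Ccl17 and Ccl22 (log2 of CPM plus 1, vertical axis, which does not start at 0) in mature cells with UMIs of cDC1 genes only and of cDC2 genes only, with 1 line per hashtag (grey circles, Empty vector; orange diamonds, Bmal1 WT) and a lone point for h9. Il12b is lower in cDC2-marked cells in 4 of 5 hashtags, Ccl17 is higher in 5 of 5, and the lines for Ccl22 cross.

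Mature cells made up 3.35%, 3.74% and 3.74% of the cells of h1, h7 and h8 and 5%, 6.67% and 3.07% of those of h3, h5 and h9. The groups overlapped. Empty vector had a mean of 3.61% ± 0.224 (SD, n = 3) and Bmal1 WT one of 4.91% ± 1.80, a difference of 1.30 percentage points (two-sided exact permutation p = 0.40, adjusted over 5 shares 0.50). With 3 against 3 the smallest p is 0.10. The difference was 0.43 points without Bmal1 WT h5 and 2.22 without h9. The gate depends on depth, and cells kept had a median of 5094 UMIs in the Empty vector library and 7570.5 in that of Bmal1 WT. Over whole libraries the shares were 3.39% in Empty vector and 3.81% in Bmal1 WT. They were 3.18% and 2.94% after thinning cells to 2000 UMIs, and 3.09% and 3.02% with at least 2 UMIs of both gate genes, so the direction turned. Among cells with a Ptprc UMI the shares were 3.22% and 4.31% (exact permutation p = 0.60), and without h5 that difference was -0.014 points. Of mature and immature cells together, mature cells were 42.0%, 25.2% and 37.8% in h1, h7 and h8 and 32.0%, 35.1% and 20% in h3, h5 and h9, again overlapping (exact permutation p = 0.40). The makeup of the immature class differed more. Xcr1 cells were 27.7%, 2.60% and 21.7% of it in h1, h7 and h8 and 36.5%, 29.5% and 60% in h3, h5 and h9, with no overlap (exact permutation p = 0.10, adjusted 0.50).

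**Figure D5:**
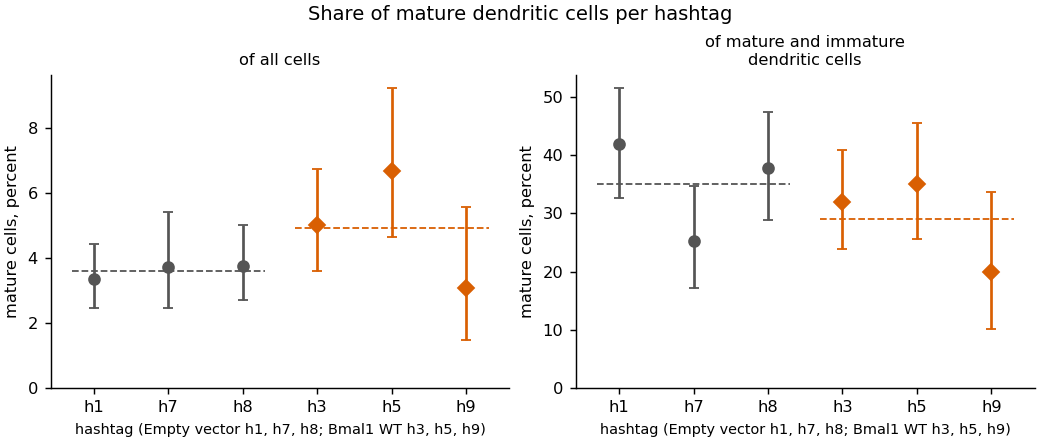
Mature dendritic cells as a percentage of all cells with 1 hashtag (left) and of mature plus immature dendritic cells (right), per hashtag, with exact 95% binomial intervals that cover counting error only and a dashed line at the mean of each group. The Empty vector (grey) and Bmal1 WT (orange) hashtags overlap in both panels, from 3.07% to 6.67% on the left and from 20% to 42.0% on the right.

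The share of mature cells with a UMI of a given gene was compared after thinning each cell to 2000 UMIs, which left 120 Empty vector and 71 Bmal1 WT cells and dropped 35. Il12b had a mean share of 37.4% ± 7.65 over the Empty vector hashtags and 32.3% ± 17 over those of Bmal1 WT (exact permutation p = 0.80). Before thinning, the libraries stood at 52.5% and 59.2%. T cells here were all cells with a UMI of Cd3e or Cd3d outside both dendritic classes. The class could therefore hold cells with both gate genes that the T cell genes had removed. Of the 20 cells removed for Cd3e, Cd3d or Ncr1, 10 had Il12b and 18 Cacnb3, so this is not a clean background. The thinned shares of Il12b in T cells were 0.378% and 0%, with median depths of 5381 and 6748 UMIs against 10804.5 and 12918 in mature cells. For Cacnb3 the thinned shares were 68.0% ± 8.74 and 76.4% ± 9.60 (exact permutation p = 0.40), against 1.14% and 0.496% in T cells. None of 12 genes compared had an adjusted p below 0.87.

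Between the groups, no gene was called as different in mature cells. Of 5298 genes tested with edgeR none was called in either direction (0% of genes), 311 had an unadjusted p below 0.05, the smallest adjusted p was 0.77, and DESeq2 called 2 genes higher in Bmal1 WT. In data simulated at this size, 82.9% of genes changed by 2 on the log2 scale and 16.3% of those changed by 1 were recovered. The simulation gave every gene the same dispersion and held no hashtag effects and no outlier cells. These rates describe that setting and may not hold for the real sums. The Bmal1 WT over Empty vector log2 ratio was 0.06 for Ccl22, 0.40 for Il12b, 0.03 for Cacnb3 and -0.12 for Scin, none called. No list held a called gene. Among lists with at least 4 genes tested, medians ran from -0.47 (interferon-stimulated genes, 10 tested) to 0.17 (glycolysis and hypoxia genes, 13 tested), and the 1 NK cell marker tested stood at -1.16. The genes with the smallest p are given as values that failed the adjustment. Cd53, a tetraspanin of leukocytes, was at 46.5, 41.4 and 47.0 CPM in h1, h7 and h8 and at 8.08, 6.37 and 21.4 CPM in h3, h5 and h9 (log2 ratio -2.32 ± 0.472, adjusted p = 0.77). Cd81, another tetraspanin, was at 159, 50.9 and 64.1 CPM against 254, 376 and 311 CPM (1.73 ± 0.364, adjusted p = 0.77). Gpr157, an orphan receptor, was at 138, 89.1 and 94.1 CPM against 32.3, 48.9 and 42.8 CPM (-1.40 ± 0.314, adjusted p = 0.77). These 3 did not overlap between the groups. The same held for 191 genes (3.61% of those tested) that were higher and 430 (8.12%) that were lower in all Bmal1 WT hashtags. Next by p were Ahnak, Ckap4, Timp1 and 1110002J07Rik on the higher side and Usp1, Vopp1 and Prps1 on the lower. In immature cells no gene of 8499 was called either, and 826 had an unadjusted p below 0.05.

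Whether the difference between the classes itself differed between groups was tested over all 12 sums. Of 9238 genes 14 (0.152%) had a larger mature over immature ratio in Bmal1 WT and none a smaller one. These were Nrcam, Angptl2, Col18a1, Ahnak, Nfib, Wwtr1, Btc, Cryab, Timp1, S100b, Ppic, Serpinf1, Prss22 and Cald1, many of them known from glial, stromal or epithelial cells. Nrcam, an adhesion molecule of neural cells, was at 686 CPM in the mature cells of h5 and at 0 to 10.7 CPM in the other mature samples, and at 56.7 CPM in the immature cells of h8. A single mature cell of h5 with 102175 UMIs held 323 UMIs of Nrcam, 781 of Timp1, 6 of the melanoma gene Sox10 and 35 of Ccl22. A single immature cell of h8 with 208412 UMIs held 67 of Nrcam, 50 of Timp1, 17 of Sox10 and no Ptprc. Without the cells over 50000 UMIs (1 mature and 5 immature cells of the sums), an alternative chosen after seeing the data, none of the 14 was called. No gene was called higher without h5 or without h8, against 5 without h1, 25 without h7, 44 without h3 and 4 without h9. Without the cells over 50000 UMIs, the 1 gene called was Fabp5, a carrier of fatty acids, with a smaller ratio in Bmal1 WT (-1.77, adjusted p = 0.020). With all cells it was at -1.65 ± 0.313 (adjusted p = 0.052). Fabp5 stood at 810, 1499 and 1201 CPM in mature cells of h1, h7 and h8 and at 1658, 1058 and 1050 CPM in h3, h5 and h9, overlapping. In immature cells it was at 62.0, 87.8 and 106 CPM in h1, h7 and h8 and at 242, 272 and 354 CPM in h3, h5 and h9, without overlap. Against Xcr1 cells only, the sign of the interaction turned (2.42, adjusted p = 0.00495).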

How the data were processed

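Cells were captured with the 10x Genomics 3' v3.1 kit, with hashtag antibodies marking pooled replicates. The authors deposited raw UMI counts per gene and barcode, not normalized, made with Cell Ranger 6.1.2 per the file headers on mm10 per the submitters' processing notes. The annotation and the strand setting of the counting are not given in the sources used here, so antisense partners cannot be told apart. The Bmal1 bHLH files were a copy of Bmal1 WT. Barcodes with at least 200 genes and at most 20% mitochondrial UMIs were kept. Hashtags were called per library with a mixture of 2 Gaussians on log counts (scikit-learn 1.9.0), with minimum counts from 17 to 159. Doublets were kept, and cells with several hashtags or none entered no replicate. Intervals cover counting error only.

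UMIs summed per hashtag and class were scaled by total UMIs and tested in edgeR 4.0.16 (R 4.3.3) with Benjamini-Hochberg adjustment at 0.05. The SE was the log2 ratio divided by the square root of F. DESeq2 1.42.0, TMM scaling, other filters and gates and leaving out hashtags were alternatives. Shares were compared by exact permutation tests (scipy 1.17.1). On simulated data with the same dispersion for every gene and no hashtag effects, 91.8% of genes changed by 2 (log2) were recovered between classes. In the interaction 19.2% were recovered. Members and gene lists were chosen with earlier results of these data known. Genes named were the given markers, the 10 highest and 10 lowest ratios called with a mean of at least 100 CPM and 1 sign in 6 hashtags, list members as examples, and the 5 smallest p each way between groups and for the interaction. Of 31053 gene identifiers 30934 matched GENCODE M21 (GRCm38). Clec7a was not analysed here, and Aldoa, with 2 identifiers, was not used. Some genes of the lists are not reported here by name.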

Additional observations from a re-analysis of the deposited data

Results flagged for a closer look

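The ratio of mature over immature dendritic cells differed between the groups, by edgeR's test of the interaction, for 14 genes. The differences, Bmal1 WT less Empty vector on the log2 scale, were 10.6 for Nrcam, 14.2 for Angptl2, 9.57 for Col18a1, 3.08 for Ahnak, 11.9 for Nfib, 10.3 for Wwtr1, 13 for Btc, 5.81 for Cryab, 7.56 for Timp1, 8.70 for S100b, 9.34 for Ppic, 8.10 for Serpinf1, 12.6 for Prss22 and 7.06 for Cald1. Angptl2, Nfib, Wwtr1, Btc, S100b, Ppic and Prss22 had no UMI in the 3 Empty vector mature sums, so their fitted values depend on the prior count and are neither sizes nor bounds. Without the 1 mature and 5 immature cells of the sums that held over 50000 UMIs, none of the 14 was called.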

How the results depend on the processing

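Between classes, 943 genes were called higher and 1434 lower with Bmal1 WT hashtags only, and 1414 lower with Xcr1 cells as the immature class. Leaving out 1 hashtag gave 1337 to 1552 higher and 2210 to 2770 lower. The hashtag block pairs the classes by design, and without the replicate block 1691 were higher and 2745 lower. For Empty vector against Bmal1 WT, no paired analysis was possible because the groups share no hashtag. Between groups in mature cells, DESeq2 called 2 genes higher, no minimum of UMIs 140 higher and 19 lower, and leaving out the 5% deepest cells 1 higher. Leaving out 1 hashtag gave 0 to 32 higher and 0 to 4 lower, both largest without h3. The 14 interaction calls became 1 with DESeq2, 107 with no minimum, 1 with at least 200 UMIs, 0 without the 5% deepest cells, 0 with hashtags by highest centred log count, 110 with Xcr1 cells only, 0 with Mgl2 cells only and 0 without cells over 50000 UMIs. The 0 lower calls became 38 with no minimum, 1 with at least 2 UMIs of both gate genes, 2 without Cd79a or C1q cells, 8 with Xcr1 cells only and 1 without cells over 50000 UMIs. Leaving out 1 hashtag gave 0 to 44 higher and 0 to 11 lower. The interaction of Fabp5 reversed to 2.42 with Xcr1 cells only. Share differences ran from 0.425 to 2.22 points of all cells, from -0.0136 to 2.07 of Ptprc cells and from -10.9 to -1.46 of mature plus immature cells, 1 hashtag left out. Of all cells the difference of 1.30 points between hashtag means became 0.338 with hashtags by highest centred log count, 0.382 after thinning and 0.822 with at least 2 UMIs of both gate genes. Over whole libraries its direction turned in the last 2 of these settings. Of Ptprc cells 1.09 became 0.642 after thinning, and of mature plus immature cells -5.98 became -1.09 without Cd79a or C1q cells. The causes were not tested. The mature sum of h9 rests on 10 cells, and no gene was called between groups in mature cells without it.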
